A study of Mus musculus with 6 samples.

Results

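The matrix-degrading proteases described here are 9 genes for secreted or membrane-bound enzymes that cut the extracellular matrix (Mmp2, Mmp9, Mmp11, Mmp13, Mmp14, Mmp16, Adamts4, Adamts5 and Ctsk) and the gene of 1 inhibitor (Timp2). They are a list of names, set by no binding threshold but chosen with earlier results of these data known, and are 10 of the 22359 protein-coding genes of the annotation on chromosomes 1 to 19, X and Y. All 10 were found in the annotation of mm9. On the plus strand lie Mmp2 (chr8:95351227-95377316), Mmp9 (chr2:164766280-164781350), Mmp13 (chr9:7272514-7283333), Mmp14 (chr14:55050441-55060095), Mmp16 (chr4:17780040-18046292), Adamts4 (chr1:173180552-173190768) and Ctsk (chr3:95303208-95313284). On the minus strand lie Mmp11 (chr10:75385967-75400678), Adamts5 (chr16:85858415-85901370) and Timp2 (chr11:118162383-118217054). For each gene a window was used that runs from 100 kb before the gene body to 100 kb after it. The median window of the 10 genes spanned 214.89 kb, against 215.43 kb for all coding genes, so window size did not set them apart.

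Cartilage is a matrix of type II collagen and the proteoglycan aggrecan, and its turnover depends on enzymes with different substrates. Gelatinases and collagenases cut collagens, the aggrecanases of the Adamts family cut aggrecan, and cathepsin K degrades bone and cartilage matrix in osteoclasts. Membrane-type metalloproteases sit on the cell surface, where Mmp14 together with Timp2 activates the proform of Mmp2. In the growing skeleton this machinery is best known from the removal of hypertrophic cartilage before it is replaced by bone. Bapx1 (Nkx3-2) is a homeobox factor of the sclerotome and of immature chondrocytes, and Sox9 is the factor that specifies the chondrocyte lineage.

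The study mapped both factors by ChIP-Seq to find genes that they control directly in the vertebral column, with 1 library per condition. Bapx1 was precipitated with an anti S-Peptide antibody from the vertebral column of E12.5 CD1 embryos in which endogenous Bapx1 carries S-peptide and calmodulin binding peptide tags, and the control was the same antibody on wildtype CD1 embryos. Sox9 was precipitated with an anti-Sox9 antibody from wildtype E12.5 CD1 embryos against an IgG control, and for these samples the tissue label adds limb to vertebral column. In NIH3T3 cells, an established mouse fibroblast line, V5-tagged Bapx1 was overexpressed and precipitated with an anti-V5 antibody, and its V5 control is labelled both as transfected with the empty pcDNA6 vector and as wild type. Dissected embryos were pooled for the Bapx1 pair, and the titles of all controls call them input although each was an antibody pulldown. The whole vertebral column was used, so the signal of cells that express Bapx1 or Sox9 is mixed with that of others.

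The libraries held 9124697 to 24855032 uniquely mapped tags. With 1 library per condition no spread between embryos, cultures or preparations could be measured, so no test across samples was possible. Ratios of ChIP to control tags are given after scaling to library size, with exact binomial (Clopper-Pearson) 95% intervals that cover counting error only. Peaks are the authors' MACS calls at a p cutoff of 1e-05, and their fold enrichment and false discovery rate (FDR, in percent) are the authors' values. The vertebral column Bapx1 list had 2815 peaks and a median FDR of 61.1%, the NIH3T3 list 23205 peaks and a median FDR of 0.58%, and the Sox9 list 3722 peaks and a median FDR of 39.1%. Positions of the Sox9 and IgG tags did not match mm9, and were corrected gene by gene as described with those results.

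Sequences are shown for the sites that the results turn on, on the plus strand of mm9 and with the letters of the motif in capitals. The Bapx1 motif is TGAGTG or TAAGTG, which reads CACTCA or CACTTA on the plus strand when it lies on the minus strand. The first set is of NIH3T3 peaks with the motif within 50 bp of the summit, in order of the gene.
Mmp2, chr8:95305403-95305503: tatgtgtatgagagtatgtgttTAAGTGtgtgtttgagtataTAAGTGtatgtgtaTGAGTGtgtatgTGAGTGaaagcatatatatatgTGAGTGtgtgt
Mmp9, chr2:164850975-164851075: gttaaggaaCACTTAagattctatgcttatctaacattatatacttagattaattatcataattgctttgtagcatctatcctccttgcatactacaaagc
Mmp11, chr10:75447468-75447568: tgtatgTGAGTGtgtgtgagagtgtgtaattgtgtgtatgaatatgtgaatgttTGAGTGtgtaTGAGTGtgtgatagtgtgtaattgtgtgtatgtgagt
Mmp16, chr4:17986577-17986677: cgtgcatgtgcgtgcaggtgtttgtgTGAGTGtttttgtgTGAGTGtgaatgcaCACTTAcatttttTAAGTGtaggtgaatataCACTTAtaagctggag
Adamts5, chr16:85959404-85959504: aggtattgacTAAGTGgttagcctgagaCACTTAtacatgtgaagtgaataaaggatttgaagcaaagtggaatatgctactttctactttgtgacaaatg
Ctsk, chr3:95353510-95353610: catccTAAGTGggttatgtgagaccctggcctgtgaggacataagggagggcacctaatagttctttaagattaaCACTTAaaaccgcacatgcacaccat
The Mmp2 and Mmp16 sites hold 5 copies of the motif each, and the Mmp11 site holds 3. All 3 sequences are rich in TG, and the whole Mmp2 and Mmp11 peaks hold 10 and 19 matches. Repeats were masked in the paper's motif analysis and not here, so these copies are not read as separate binding sites.

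The second set is of embryo sites. The first is a stretch downstream of Timp2 that spans the summits of a Bapx1 peak and an overlapping corrected Sox9 peak. The second is the Sox9 summit downstream of Mmp11. Capitals mark the Bapx1 motif in the former and the Sox9 motif in the latter, which is AACAATG and reads CATTGTT on the plus strand.
Timp2, chr11:118100570-118100858: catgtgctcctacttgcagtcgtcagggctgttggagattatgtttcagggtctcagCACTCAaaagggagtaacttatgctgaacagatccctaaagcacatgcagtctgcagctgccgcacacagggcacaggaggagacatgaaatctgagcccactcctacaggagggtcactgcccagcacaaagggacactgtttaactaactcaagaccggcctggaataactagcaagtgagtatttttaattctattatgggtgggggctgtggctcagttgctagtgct
Mmp11, chr10:75344356-75344456: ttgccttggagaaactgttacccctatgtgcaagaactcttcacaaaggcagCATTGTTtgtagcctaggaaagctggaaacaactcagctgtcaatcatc
The Timp2 stretch of 289 bp holds 1 Bapx1 motif and no match to the Sox9 motif as searched, which is a pair of letters that are each A or T, then CAA, then A or T, then G. The Mmp11 coordinates, and the Sox9 end of the Timp2 stretch, are corrected estimates.

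In the embryo, no protease promoter had an interval above 1 for Bapx1 within 1 kb of the TSS, and few windows held a peak. Of the 10 genes, 2 had a Bapx1 peak of the vertebral column in their window, Mmp2 and Timp2, whereas 25.1% of all coding genes had one, so the proteases were not above the background. Both peaks were distal, and with a flank of 50 kb or a p of at most 1e-10 the count was 0, against 16.1% and 6.93% of all genes. Within 1 kb of the TSS, 0 of the 10 genes reached a ratio of 2, against 2.16% of all promoters, and 0 had an interval above 1, against 3.84%. Within 500 bp of the TSS, 1 gene, Adamts4, reached a ratio of 2, with 13 tags against 5 (2.17, 0.72 to 7.76), against 6.46% of all promoters at that width. The promoter ratios ran from 0.52 to 1.60 with a median of 1.04, and the median of all coding genes was 1.02. Over whole windows the ratios ran from 0.949 to 1.03, with 0 intervals above 1, against 4.98% of all genes.

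Taken gene by gene, the promoter of Mmp2, a gelatinase, held 25 tags in the Bapx1 library and 34 in the wildtype control, a ratio of 0.61 (0.35 to 1.06). That of Mmp9, the other gelatinase, held 32 and 27. Mmp13, the main collagenase of hypertrophic cartilage, had 23 and 12 tags, a ratio of 1.60 (0.76 to 3.52). All 3 intervals included 1. Within 2.5 kb the Mmp2 promoter held 57 tags against 70, a ratio of 0.68 (0.47 to 0.98), an interval below 1. The share of all promoters with such an interval at that width was not counted.

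Mmp11, a stromelysin, had 15 tags and 24 in the control, the lowest ratio of the 10 at 0.52 (0.25 to 1.03). From the start of its longest coding transcript, 5431 bp away, the direction turned, with 46 tags against 25 and a ratio of 1.53 (0.92 to 2.60). The membrane-type enzymes Mmp14 and Mmp16 had 35 against 33 and 42 against 32 tags. For the aggrecanases, Adamts4 had 26 against 14, a ratio of 1.55 (0.78 to 3.21), and Adamts5 had 25 against 30. The intervals of these 5 genes included 1 too.

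Ctsk, the gene of cathepsin K, had 31 tags and 19 in the control, a ratio of 1.36 (0.74 to 2.55), and Timp2 had 39 and 27. All these promoters rested on counts of 12 to 42 tags, which leave wide intervals.

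**Figure D1:**
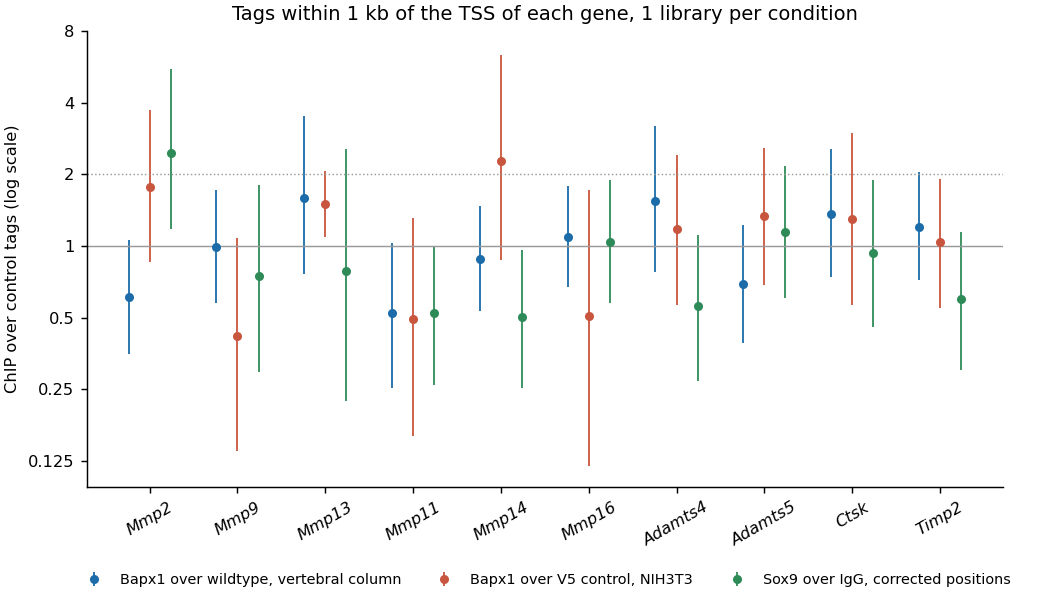
ChIP over control tags within 1 kb of the TSS of each gene (log scale) for the Bapx1 pair of the vertebral column, the Bapx1 pair of NIH3T3 cells and the Sox9 pair at corrected positions. Points are single libraries, bars are exact binomial 95% intervals of the counting error, and the dotted line marks a ratio of 2. All bars of the vertebral column Bapx1 pair cross 1, whereas the NIH3T3 bar of Mmp13 and the Sox9 bar of Mmp2 lie above it.

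The Bapx1 peak in the Mmp2 window lay at chr8:95470950-95471207, 119.9 kb downstream of the Mmp2 TSS and between genes, with Slc6a2 as the nearest TSS at 12869 bp. Recounting gave 16 tags in the Bapx1 library and 2 in the wildtype control, a ratio of 6.66 (1.57 to 59.7). The NIH3T3 libraries held 1 tag and 2 tags there, and Sox9 and IgG held 1 and 3. The peak was thus seen in the embryo Bapx1 library alone, its authors' FDR was 63.2%, and it held no Bapx1 motif.

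The Bapx1 peak in the Timp2 window lay at chr11:118100480-118100836, 116.4 kb downstream of the Timp2 TSS in an intron of Cyth1, 9261 bp from the most upstream Cyth1 start. Recounting gave 27 tags for Bapx1 and 5 for the wildtype control, a ratio of 4.50 (1.71 to 15.0), with an authors' FDR of 60.7%. In NIH3T3 cells the Bapx1 library held 0 tags and the V5 control 6. The site was therefore enriched in the embryo pair and not in the NIH3T3 pair. It carries 1 copy of the Bapx1 motif near the summit, printed above. Since both peaks were called from these libraries, their ratios describe the calls and do not test them.

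For Sox9 the positions had first to be brought onto mm9. The tags of the Sox9 and IgG libraries around a gene were matched to those of the Bapx1 and wildtype libraries in windows of 500 kb, and the shift with the best match was taken. It was clear at all 10 genes, and amounted to -365.2 kb at Mmp2, -281.5 kb at Ctsk, 19.1 kb at Mmp11, 45.3 kb at Timp2, 93.5 kb at Adamts4, 111 kb at Adamts5, 134.3 kb at Mmp9 and 1665 kb at Mmp14. At Mmp13 it was 50 bp and at Mmp16 it was 0. Positive values move the deposited position up. Repeating the match in bins of 10 bp changed no estimate by more than 60 bp. Over all genes a clear shift was found for 19818 (88.6%), and 95.7% of these were displaced by over 1 kb.

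The correction was checked on the Sox9 motif, which it did not use. Of the 2808 Sox9 peaks in gene windows displaced by over 1 kb, 34.4% (32.6 to 36.2%) had the motif within 50 bp of the corrected summit, and 13.3% of the flanks 500 bp away had it. At the deposited summits the share was 15.0% (13.7 to 16.4%), close to the 13.8% of the flanks there.

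After correction, 3 of the 10 genes had a Sox9 peak in their window (Mmp2, Mmp11 and Timp2, with 4 peaks in all), whereas 30% of the coding genes with a clear shift had one. All 4 were distal, at 27.9 to 116.3 kb from the TSS. At the deposited coordinates the peaks fell in the windows of 4 genes, Mmp11, Adamts5, Ctsk and Timp2, including a peak 207 bp from the Ctsk TSS with 15 tags and an FDR of 60.9%. Corrected, this peak moved to 281.3 kb from Ctsk and a further one to 269.1 kb, and the Adamts5 peak to 166.9 kb, all outside the windows. No Sox9 peak thus lay at the Ctsk promoter once the coordinates were corrected. The Ctsk promoter then held 17 Sox9 tags and 19 IgG tags, a ratio of 0.93 (0.46 to 1.90).

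The strongest of the 4 was downstream of Mmp11. At the corrected position chr10:75344181-75344713, 56.3 kb downstream of the Mmp11 TSS and between genes, the Sox9 library held 50 tags and IgG held 3, a ratio of 17.4 (5.61 to 87.1), with an authors' fold enrichment of 47.1 and an FDR of 0.99%. The nearest TSS was that of Derl3, at 11737 bp. The Bapx1 library held 11 tags there and its wildtype control 7, a ratio of 1.31 (0.46 to 3.98), and the NIH3T3 libraries held 4 and 6. Enrichment at this site was thus called for Sox9, and for Bapx1 it was not detectable. Since all 4 Sox9 peaks were called from these Sox9 and IgG libraries, their Sox9 ratios describe the calls and do not test them. The summit carries the Sox9 motif printed above.

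A second Sox9 peak with a low FDR, 4.03%, lay downstream of Timp2 at the corrected position chr11:118100527-118101040. The Sox9 library held 41 tags and IgG held 10, a ratio of 4.27 (2.11 to 9.57). It overlapped the Bapx1 peak in the Cyth1 intron by 310 bp, and the summits lay 138 bp apart, whereas at the deposited coordinates they were 45.1 kb apart. Over the whole of this Sox9 peak the Bapx1 library held 30 tags and its control 9, a ratio of 2.78 (1.29 to 6.65), and the NIH3T3 libraries held 0 and 7. Among all corrected Sox9 peaks, 206 of 2927 (7.04%) overlapped a vertebral column Bapx1 peak, so a pair of this kind was not particular to Timp2.

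**Figure D2:**
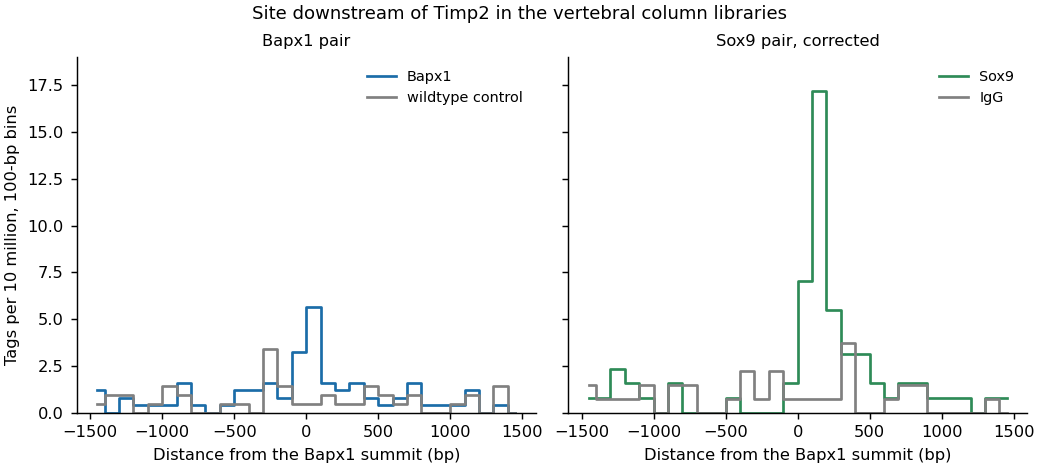
Tags in 100-bp bins, scaled to 10000000 tags a library, by distance from the Bapx1 summit downstream of Timp2, for the Bapx1 pair (left) and the Sox9 pair at corrected positions (right), with each tag moved 100 bp in its own direction. The Bapx1 library reaches 5.63 and the Sox9 library 17.2 near the summit, and the grey controls stay at or below 3.75.

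The other 2 Sox9 peaks were weak, each with an authors' FDR of 100%. One lay 54.3 kb downstream of the Mmp2 TSS in an intron of Lpcat2, with 13 Sox9 tags and 3 IgG tags (an interval that included 1, 0.895 to 19.65, with tags moved 100 bp in their own direction), and the other in an intron of Timp2, 27.9 kb from its TSS, with 16 and 4. In the NIH3T3 pair the Mmp2 site held 0 Bapx1 tags against 1. The Timp2 intron site held 11 against 2 there, a ratio of 7.70 (1.68 to 71.4), although no NIH3T3 peak was called at it. At the promoters the Sox9 over IgG ratio ran from 0.505 to 2.46 with a median of 0.76, and the median of all genes with a clear shift was 0.90. Mmp2 alone of the 10 promoters had an interval above 1, with 26 Sox9 tags and 11 IgG tags, a ratio of 2.46 (1.18 to 5.53), and 2.35% of all promoters had such an interval. No Sox9 peak was called there. The promoters of Mmp11 (15 against 30 tags, 0.26 to 0.9998) and Mmp14 (15 against 31, 0.25 to 0.96) had intervals that ended below 1, in the case of Mmp11 only just, and 6.28% of all promoters had such an interval. Over whole windows the Sox9 over IgG ratio ran from 0.815 to 1.25 with a median of 0.938, against 0.937 for all genes. The interval lay above 1 for 3 windows, Mmp16 (1.25), Adamts5 (1.17) and Mmp13 (1.11), and below 1 for 4, Mmp9, Mmp14, Adamts4 and Timp2, whereas 16.9% and 47.6% of all windows did so. Mmp2 had a window ratio of 1.02 (0.948 to 1.10).

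In NIH3T3 cells every protease had a Bapx1 peak in its window, which was also true of 81% of all coding genes. The 44 peaks numbered 12 for Mmp13, 7 each for Mmp2 and Timp2, 5 each for Adamts4 and Ctsk, 3 for Mmp16, 2 for Adamts5 and 1 each for Mmp9, Mmp11 and Mmp14. The median gene window held 2 peaks and the 90th percentile was 6, so Mmp13, Mmp2 and Timp2 were beyond the latter. Per Mb the 10 windows held 17.9 peaks against 8.74 in the whole genome, and 14.2 without Mmp13. The genome value includes sequence far from genes, and the density over the windows of all coding genes was not counted. The peaks were mostly distal, with a median distance of 47.2 kb from the member's TSS, 3 of the 44 inside a member's own gene, and the member as the nearest TSS for 13. Which gene a peak in a window belongs to was not tested.

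**Figure D3:**
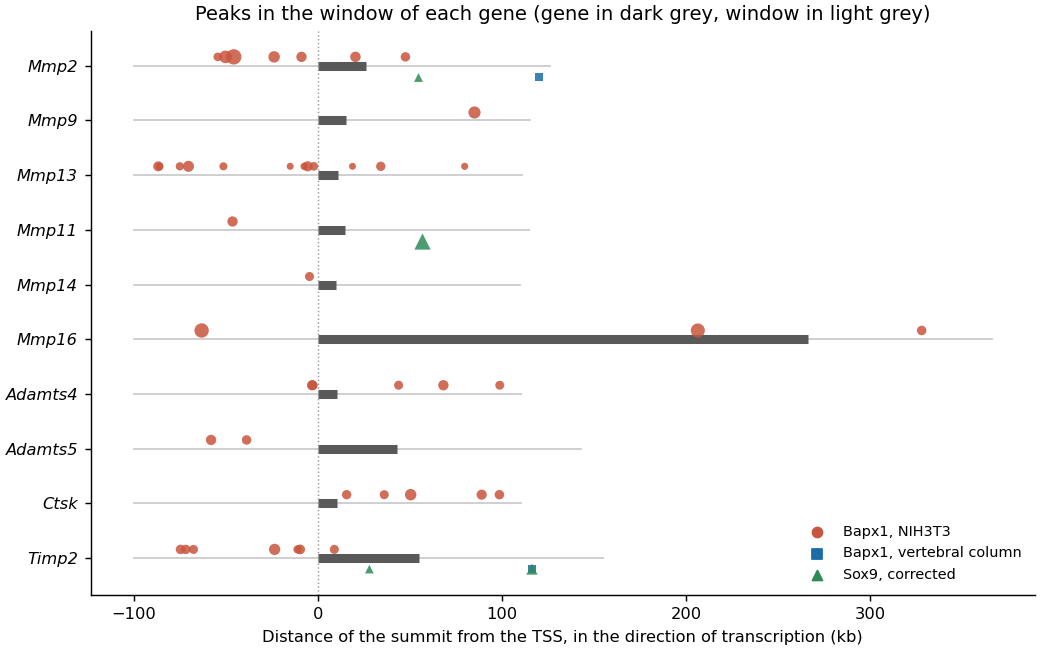
Summits by distance from the TSS of each gene (kb, in the direction of transcription) for the NIH3T3 Bapx1, vertebral column Bapx1 and corrected Sox9 lists, with marker area growing with the authors' fold enrichment. NIH3T3 peaks lie in all 10 windows, embryo peaks in those of Mmp2, Mmp11 and Timp2, and the square and triangle of Timp2 coincide at 116 kb.

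Of the gelatinases, Mmp2 had the strongest site. It lay at chr8:95305280-95305847, 45.8 kb upstream of the TSS and between genes, with 49 Bapx1 tags and 3 V5 control tags, a ratio of 22.9 (7.37 to 115) and an authors' fold enrichment of 41.7. The next were at 50.3 kb upstream (21 against 3 tags) and in an intron of Mmp2 at 20.4 kb downstream (26 against 4), and the nearest to the TSS was at 9.0 kb upstream (16 against 4). The embryo pair was not enriched at the strongest site, with 11 tags and 10 in the control, a ratio of 0.92 (0.35 to 2.41). At the intronic site it held 20 tags and 9 in the control, a ratio of 1.85 (0.81 to 4.62). Mmp9 had 1 site, in an intron of Ncoa5 and 84.7 kb downstream, with 16 tags against 1.

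Mmp11 also had 1 NIH3T3 site, 46.8 kb upstream in an intron of Gm5134, with 17 tags and 3 control tags, a ratio of 7.93 (2.29 to 42.2). It lies on the other side of the gene from the Sox9 site. The embryo pair held 11 and 12 tags there.

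Among the membrane-type enzymes, Mmp16 had 2 of the strongest sites. The first was in an intron of Mmp16 itself, 206.4 kb downstream of its TSS, with 25 tags against 1, and the second was 63.2 kb upstream with 28 against 2, a ratio of 19.6 (4.94 to 170). The remaining site, with 9 against 2, lay 328 kb downstream, beyond the gene. Mmp14 had 1 site 4.9 kb upstream, with 9 tags against 0 and an authors' FDR of 5.22%, which was the highest FDR of the 44, and the nearest TSS was that of Mrpl52 at 186 bp. In the embryo pair that site held 16 tags against 7, a ratio of 1.90 (0.74 to 5.47).

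The aggrecanases differed in where their peaks lay and in the motif. Adamts4 had a pair of peaks at 3.2 and 2.8 kb upstream, with 18 tags against 2 and 12 against 1. Neither held the Bapx1 motif within 50 bp of the summit, nor did the other 3 peaks of the Adamts4 window. In the embryo pair the first peak held 15 tags against 5, a ratio of 2.5 (0.86 to 8.79), an interval that included 1. Adamts5 had 2 peaks between genes, 38.8 kb upstream with 10 tags against 2 and 58.1 kb upstream with 9 against 0. Both held 2 copies of the motif, and for both Adamts5 was the nearest TSS.

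For Ctsk the strongest of the 5 peaks was 50.4 kb downstream, in an intron of Ctss, the gene of the related cathepsin S, with 12 tags against 1 and 2 copies of the motif. The nearest to the Ctsk TSS was 15.6 kb downstream with 9 against 2, and the next by p lay at 88.9 kb (10 against 1), 734 bp from the TSS of Golph3l, and at 98.6 kb (9 against 0) in an intron of that gene. Timp2 had its strongest site 9.7 kb upstream (26 tags against 3, a ratio of 12.1, 3.72 to 62.6), followed by sites at 23.6 and 11.1 kb upstream, and the nearest in an intron of Timp2 8.9 kb downstream (17 against 4). All 7 Timp2 peaks lay elsewhere than the shared embryo site.

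Promoters were counted as fixed regions, whether or not they held a peak. In NIH3T3 cells, 1 of the 10 genes, Mmp14, reached a ratio of 2, with 13 tags against 8 and a ratio of 2.27 (0.87 to 6.33), whereas 24.6% of all promoters did. The gene named depended on the region counted, with none of those with at least 10 tags within 500 bp (32.4% of all promoters), Mmp2 in place of Mmp14 within 2.5 kb (15.6%), and Mmp11 beside Mmp14 from the start of the longest transcript (24.5%). Within 500 bp Mmp14 (6 against 2 tags, a ratio of 4.20, 0.75 to 42.5) and Mmp16 (2 against 6) fell under that minimum and were not counted. Within 1 kb the interval lay above 1 for Mmp13 alone, with 85 tags against 79 and a ratio of 1.51 (1.10 to 2.07), against 22.5% of all promoters. Its whole window had a ratio of 1.46, inside that interval, and its tag count was several times that of the other promoters. Mmp2 (19 against 15), Adamts4 (16 against 19), Adamts5 (20 against 21), Ctsk (13 against 14) and Timp2 (20 against 27) lay between 1.04 and 1.77. Mmp9 (6 against 20), Mmp11 (6 against 17) and Mmp16 (4 against 11) lay between 0.42 and 0.51. From the start of the longest transcript Mmp11 had 29 against 17 tags, a ratio of 2.39 (1.27 to 4.63). Within 2.5 kb the interval lay above 1 for Mmp13 and also for Mmp2 (2.12, 1.32 to 3.45), Mmp14 (1.67, 1.01 to 2.78) and Adamts5 (1.57, 1.01 to 2.45). The share of all promoters with such an interval at that width was not counted. Over whole windows, 5 of the 10 had intervals above 1, against 29.3% of all genes. Their ratios were 1.46 for Mmp13, 1.25 for Adamts4, 1.2 for Timp2, 1.19 for Mmp2 and 1.15 for Ctsk.

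The motif was less frequent at these peaks than in the NIH3T3 list. It was present within 50 bp of the summit at 18 of the 44 (40.9%, 26.3 to 56.8%), against 64.4% of all 23205 peaks, and in 13.6% of the flanks 500 bp away. Without Mmp13 it was 12 of 32 (37.5%, 21.1 to 56.3%), and among the 15 peaks with a p of at most 1e-10 it was 60% (32.3 to 83.7%), against 78.5% of the list. Both of the first intervals lie below the share of the list, and the third includes the corresponding value. The 32 peaks are part of the 44, so the first intervals are not separate results. All intervals treat peaks that share a window as independent, such as the 5 of Adamts4, which all lacked the motif. A difference from the list was therefore not tested. With 44 peaks in 10 windows the counts describe these loci only.

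Outside the Mmp13 window, the NIH3T3 sites had a pooled embryo ratio near that of the whole NIH3T3 list. Over the 32 peaks without those of Mmp13, the NIH3T3 pair held 506 and 69 tags, a ratio of 10.3 (7.97 to 13.4), whereas the vertebral column pair held 228 and 177, a ratio of 1.07 (0.88 to 1.31). The whole NIH3T3 list gave 6.10 in NIH3T3 cells and 1.106 (1.098 to 1.115) in the vertebral column. The latter lies inside the embryo interval of the 32 peaks, so these sites were not set apart from the list. The NIH3T3 ratios come from the pair that these peaks were called from, so they describe the calls and do not test them. Of the 44 single peaks, 0 had an interval above 1 in the embryo pair and 1 had an interval below it. The shares over the whole NIH3T3 list were not counted. Outside the Mmp13 window each site held at most 20 embryo Bapx1 tags and 12 control tags, so few intervals could leave 1. These counts are therefore not read as a result about the proteases. In the NIH3T3 pair the vertebral column Bapx1 peak of Mmp2 held 1 tag against 2 (interval 0.012 to 13.4). That of Timp2 held 0 against 6 (interval 0 to 1.19). All 2815 peaks of that list gave 9117 and 7339 tags in the NIH3T3 pair, a ratio of 1.74 (1.69 to 1.79). With so few tags at 2 sites, a difference from the list was not tested.

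Mmp13 differed from the other 9 genes in the tags of its control. In its window the V5 control of NIH3T3 cells held 7726 tags and the wildtype embryo control 1506. The ratio of these controls was 8.20 times that of the median gene, and the other 9 windows lay between 0.724 and 1.09. Of all coding genes, 0.127% reached 4 times the median, and 13 of 21965 were at or above Mmp13, itself included. The stretch of raised tag density ran over 3.85 Mb, chr9:6550001-10400000, with a median of 8.02 (6.80 to 9.99 in bins of 50 kb), against a median of 0.79 in the rest of the region examined, chr9:3000001-14000000. A separate bin outside it, chr9:5150001-5200000, was also raised, with 1034 V5 control tags and 374 wildtype embryo control tags, a value of 4.42, and with a value of 6.78 for Bapx1. The 3.85 Mb stretch holds 27 coding genes, among them 10 Mmp genes (Mmp13, Mmp12, Mmp1b, Mmp3, Mmp1a, Mmp10, Mmp8, Mmp27, Mmp20 and Mmp7). Its edges were sharp, with values of 1.59 and 0.71 in the adjoining bins. It was seen in the Bapx1 library of NIH3T3 cells (median 9.72) and in the V5 control alike. The wildtype embryo control held 381 tags in the first bin of the stretch and 382 in the bin before it.

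**Figure D4:**
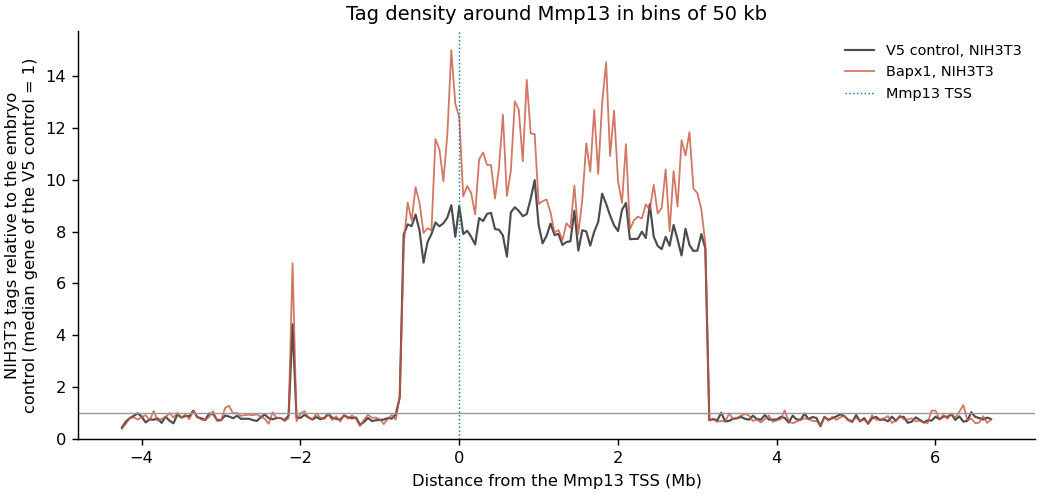
Tags of the 2 NIH3T3 libraries relative to the wildtype embryo control in bins of 50 kb, by distance from the Mmp13 TSS (Mb), scaled so that the median gene of the V5 control is 1. Over 3.85 Mb around Mmp13 the medians are 8.02 for the V5 control and 9.72 for Bapx1, and outside it the V5 control has a median of 0.79 with 1 further raised bin at -2.10 Mb.

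Peaks were denser and longer inside this stretch. It held 233 NIH3T3 peaks, 60.5 per Mb against 8.67 elsewhere, with a median length of 1717 bp against 372 bp and a median authors' fold enrichment of 7.59 against 13.6. The motif share was alike, 62.7% against 64.4%. The stretch also held more ChIP than control tags, with a ratio of 1.25 (1.24 to 1.26). The 12 peaks of the Mmp13 window gave 3128 and 2122 tags, a ratio of 2.06 (1.95 to 2.18), against 10.3 for the other proteases. Both sets were called from this pair. The control held 38 to 506 tags at each of the 12 and 0 to 9 at each other peak. The smallest called ratios were 1.35 and 4.20, so the pooled ratios describe the calls and do not compare binding. The strongest of the 12 was at 86.8 kb upstream in an intron of Dcun1d5, with 407 tags against 135, a ratio of 4.22 (3.46 to 5.16), followed by one at 70.4 kb upstream (863 against 506) and one at 86.1 kb upstream (212 against 113). The nearest lay 2.3 kb upstream of the Mmp13 TSS, with 102 against 70 tags, a ratio of 2.04 (1.49 to 2.80). In the embryo pair the 12 peaks held 429 and 399 tags, a ratio of 0.90 (0.78 to 1.03). The part of the raised density in the number of peaks was not tested.

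The wider families of proteases and inhibitors are given for context. Of 51 further genes, all found in the annotation, 10 had a vertebral column Bapx1 peak in their window (25.1% of all genes) and 45 an NIH3T3 peak (81% of all genes), and 10 of the 46 with a clear shift had a corrected Sox9 peak (30% of all genes). Of the 51, 9 lay in the stretch around Mmp13, all with NIH3T3 peaks and none with an embryo Bapx1 peak. No promoter of the 51 reached a ratio of 2 in the embryo, against 2.16% of all promoters, and 10 did in NIH3T3 cells, against 24.6%.

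The 5 genes of the 51 with the nearest embryo Bapx1 summit were named by that distance, and how often a gene has a peak this near was not tested. For Ctsb, the gene of the lysosomal cathepsin B, the summit lay 52 bp from the TSS with 26 tags against 9 in the control, a ratio of 2.41 (1.09 to 5.84). For Adamts6 it lay 908 bp downstream with 19 against 2, a ratio of 7.91 (1.91 to 70.1), and for Mmp15, a membrane-type enzyme, 3295 bp upstream with 34 against 8, a ratio of 3.54 (1.61 to 8.85). The next were Mmp25, whose peak lay 28258 bp upstream in an exon of Thoc6, and Ctsz at 39664 bp downstream. None of the 5 held the motif within 50 bp of the summit, and their authors' FDR ran from 61.7 to 69.1%. These peaks too were called from the libraries counted, so their ratios describe the calls.

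In NIH3T3 cells the shortest distances were at Plat, the gene of tissue plasminogen activator (94 bp, 13 tags against 2), Adamts7 (566 bp, 11 against 4), Adamts6 (927 bp, 18 against 2), Mmp7 in the stretch around Mmp13 (1375 bp, 159 against 102) and Timp3 (1581 bp, 13 against 4). Adamts6 was in both groups of 5, with peaks on opposite sides of its TSS in the 2 tissues.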

How the data were processed

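The 6 libraries were sequenced as single 35-bp tags after 14 rounds of amplification per the labels. Per the study's methods the authors mapped reads to mm9 with the Illumina pipeline, kept unique matches with at most 2 mismatches, and called peaks with MACS against the matching control. The authors deposited tag positions, and peak lists that give a count of tags per peak, a significance score of 10 times −log10 (p), a fold enrichment as a ratio over the local background, and an FDR in percent. Deposited positions carry no normalization.

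Tags were recounted here by their first base, with 1 tag kept per position and strand (2.36% and 6.53% of the NIH3T3 tags were repeats, none in the embryo libraries), and library size was the number of tags kept on the chromosomes used. Promoters with at least 10 tags in both libraries together were counted. Genes and TSS (the most upstream protein-coding start) came from GENCODE on NCBIM37, sequences from that assembly. The shift of the Sox9 pair was the best correlation of tags in bins of 50 bp, at most 3 tags per bin, over 4000 kb in either direction, called clear if it exceeded the best match more than 2000 bp away by a factor of 1.5, with at least 1000 tags. Tested on simulated data, made by moving thinned tags of the wildtype control by a known amount, 14 of 20 windows were clear and all 14 returned the known shift within 200 bp. Python 3.11.15, numpy 2.4.6, scipy 1.17.1 and pandas 2.3.3 were used.

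The genes, the lists and the alternatives were chosen with earlier results of these data known. Named are the 10 genes, every embryo Bapx1 and corrected Sox9 peak in their windows, the 3 NIH3T3 peaks of each with the smallest p and the one nearest the TSS, and of 51 further genes the 5 nearest to a summit in each Bapx1 list. Alternatives were other flanks, promoter widths, thresholds, tag rules, scalings, transcript starts and shift estimates. Peaks were not called again. Expression in mutant embryos was not analysed here.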

Additional observations from a re-analysis of the deposited data

Results flagged for a closer look

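Among the peaks, gene bodies, windows and promoters within 1 kb, the embryo and NIH3T3 Bapx1 pairs moved in opposite directions at 2 sites, each with an interval off 1. At neither was the difference itself tested. The first is the only one of 44 NIH3T3 peaks with an embryo interval below 1, and peak calling fixed one side of each contrast. At the NIH3T3 peak 98.8 kb downstream of the Adamts4 TSS, in an intron of Pfdn2, the embryo pair held 2 tags against 9 in the control, a ratio of 0.185 (0.0195 to 0.894), and the NIH3T3 pair 13 against 3, a ratio of 6.06 (1.67 to 33.2). Over the corrected Sox9 peak downstream of Timp2 the embryo pair held 30 against 9, a ratio of 2.78 (1.29 to 6.65), and the NIH3T3 pair 0 against 7, with an upper limit of 0.97. Within 2.5 kb of its TSS, a width not searched for this pattern, the Mmp2 promoter also moved in opposite directions. The embryo pair held 57 tags against 70 there, a ratio of 0.68 (0.47 to 0.98). The NIH3T3 pair held 47 against 31, a ratio of 2.12 (1.32 to 3.45).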

How the results depend on the processing

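No paired analysis was possible because each condition has 1 library and the labels give no shared replicate numbers. The number of genes with an embryo Bapx1 peak, 2 as reported, was 0 with a flank of 50 kb, 0 with peaks of p at most 1e-10, 0 within 100 kb of the TSS (21.5% of all genes) and 0 with an FDR of at most 5%, which no peak of that list reached, and it was 3 with a flank of 200 kb (39.6% of all genes). For NIH3T3 it fell from 10 to 6 at p of at most 1e-10 (Mmp2, Mmp9, Mmp13, Mmp16, Adamts4 and Timp2; 36.4% of all genes), and for Sox9 it rose from 3 to 6 with a flank of 200 kb (47.1% of genes with a clear shift, against 30% as reported). Promoters at a ratio of 2 were 1 (Adamts4) in place of 0 in the embryo within 500 bp of the TSS, and in NIH3T3 cells 0 in place of 1 within 500 bp and 2 (Mmp11 and Mmp14) from the start of the longest coding transcript. Within 500 bp the Mmp14 promoter had a ratio of 4.20 (6 tags against 2) and was left out for having fewer than 10 tags. Within 2.5 kb the single NIH3T3 promoter was Mmp2 and not Mmp14. The motif share went from 40.9% to 60% with p of at most 1e-10. Without the Mmp13 peaks, a choice made after seeing the data like the limit of 100 kb from the TSS and the shift in bins of 10 bp, the pooled ratio went from 2.32 to 10.3 in NIH3T3 cells and from 0.95 to 1.07 in the embryo. All other settings left the counts within a factor of 1.5. Single peak and window ratios stayed inside their wide intervals with all tags (66) and with tags moved 100 bp in their own direction (65), but several NIH3T3 peaks of few control tags moved by over 1.5 times. With moved tags the Mmp16 peaks 63.2 kb upstream and 328 kb downstream went from 19.6 to 36.4 and from 6.30 to 12.6, and the Ctsk peaks at 15.6 and 88.9 kb from 6.30 to 12.6 and from 14.0 to 6.996. The interval came to include 1 at the Ctsk peak 36.0 kb downstream (6.996 to 2.80, 0.87 to 10.4) and at the Sox9 peak of Mmp2 (4.52 to 3.48, 0.895 to 19.65). The causes of these changes were not tested. Depth limits promoters to 4 to 85 tags, and corrected Sox9 positions are estimates.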
